A study of Mus musculus with 4 samples.

Results

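The genes described here are those of the mouse major histocompatibility complex and of the machinery that loads its molecules with peptide. They were taken by name: every protein-coding gene whose symbol begins with H2-, together with B2m, Tap1, Tap2, Tapbp, Psmb8, Psmb9, Psmb10, Nlrc5, Ciita and Cd74. This gave 44 of the 21938 protein-coding genes in GENCODE mouse release 21 on mm10. Among them are 24 class I chain genes, 8 genes of the class I pathway, 9 class II chain genes, 2 genes of the class II pathway, and H2-Ke6, a dehydrogenase gene that lies in the complex and belongs to neither class. Class I molecules pair a heavy chain with beta-2 microglobulin and show peptides from inside the cell on nearly all cell types. Class II molecules pair an alpha and a beta chain and show peptides taken up from outside, mainly on B cells, dendritic cells and macrophages; resting mouse T cells are known for class I and not for class II at their surface.

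The study measured accessible chromatin by DNase-seq, in which DNase I cuts open DNA and the cut ends are sequenced. The cells were naive resting CD8-positive alpha-beta T cells from virgin female B6CASTF1/J mice aged 2 months, a first-generation cross of C57BL/6J and CAST/EiJ. All 4 libraries, biological replicates 1 to 4, belong to that 1 group, so the comparisons are between genes and between libraries. Each library has a biosample of its own, but all carry 1 donor identifier and none is tied to a particular animal, so p-values measure only the spread between libraries, which may be technical. Both parental forms of this highly polymorphic region were read on mm10, which carries the C57BL/6J sequence; the effect of the CAST/EiJ allele was not tested.

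Replicates 3 and 4 stand apart. Replicate 4 was the shallowest, with 20647 peaks and 24.3 M implied tags, against 51121 to 70552 peaks and 62.9 to 109 M tags in the others. Replicate 3 had no peak at the promoter of Cd8a, the gene for a chain of the co-receptor that defines these cells, and neither did replicate 4; Cd8b1, the gene for the other chain, had heights of 1.12, 1.43, 1.03 and 0.596 relative to the median shared site in replicates 1 to 4. Promoter heights summed over 10 B cell markers were 2.10, 2.62, 4.63 and 5.0 in replicates 1 to 4, and over 9 T cell markers 7.26, 6.85, 5.52 and 3.26. The B cell sums were thus larger and the T cell sums smaller in replicates 3 and 4, but single markers differed: Cd79b, a B cell receptor gene, had no peak in replicate 4, where Cd5, a T cell surface gene, was at its highest with 0.579. A promoter without a peak counts as 0 in these sums, and 9, 9, 7 and 4 of the T cell markers were called in replicates 1 to 4. How much of the smaller T cell sum in the shallow replicate 4 comes from missed peaks was not tested. Results that rest on those libraries are given with and without them.

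Promoters were taken as windows reaching 1 kb to each side of every annotated start, and a promoter was called where a peak of the longer deposited list overlapped it. Relative height is the tallest such peak divided by the median height, in that library, of the 17545 sites that all 4 libraries share, so that 1 is the height of a typical shared site and 0 stands for no peak. Of the 44 genes, 28, 32, 29 and 18 had a promoter peak in replicates 1 to 4, set beside 58.3%, 58.4%, 56.7% and 46.2% of all protein-coding genes. In at least 3 libraries 27 were called, or 61.4%, close to the 55.2% of all genes. In all 4 libraries 18 were called, where 45.8% of all genes were, and 12 were called in none. The share of all genes called in none was not counted. A mean relative height below that of H2-T3, the lowest of the 44 with a peak, was found for 40.3% of all genes. A footprint, a short protected stretch inside accessible DNA, was present at the promoter in at least 3 libraries for 26 genes (52.8% of all genes), and an interval with a significant cut rate for 27 (56.0% of all genes). By these counts the genes as a whole were therefore close to other genes. Their loci, the gene bodies with 25 kb on each side, held more peaks, although neighbouring loci overlap. The medians per locus were 7, 7, 7 and 2 in replicates 1 to 4, against 4, 5, 3 and 1 over all genes. Median heights of those called in all 4 libraries were 1.96, 1.91, 1.95 and 1.66, against 1.51, 1.50, 1.63 and 1.58 over all such genes. Further differences lay between the groups within them.

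**Figure D1:**
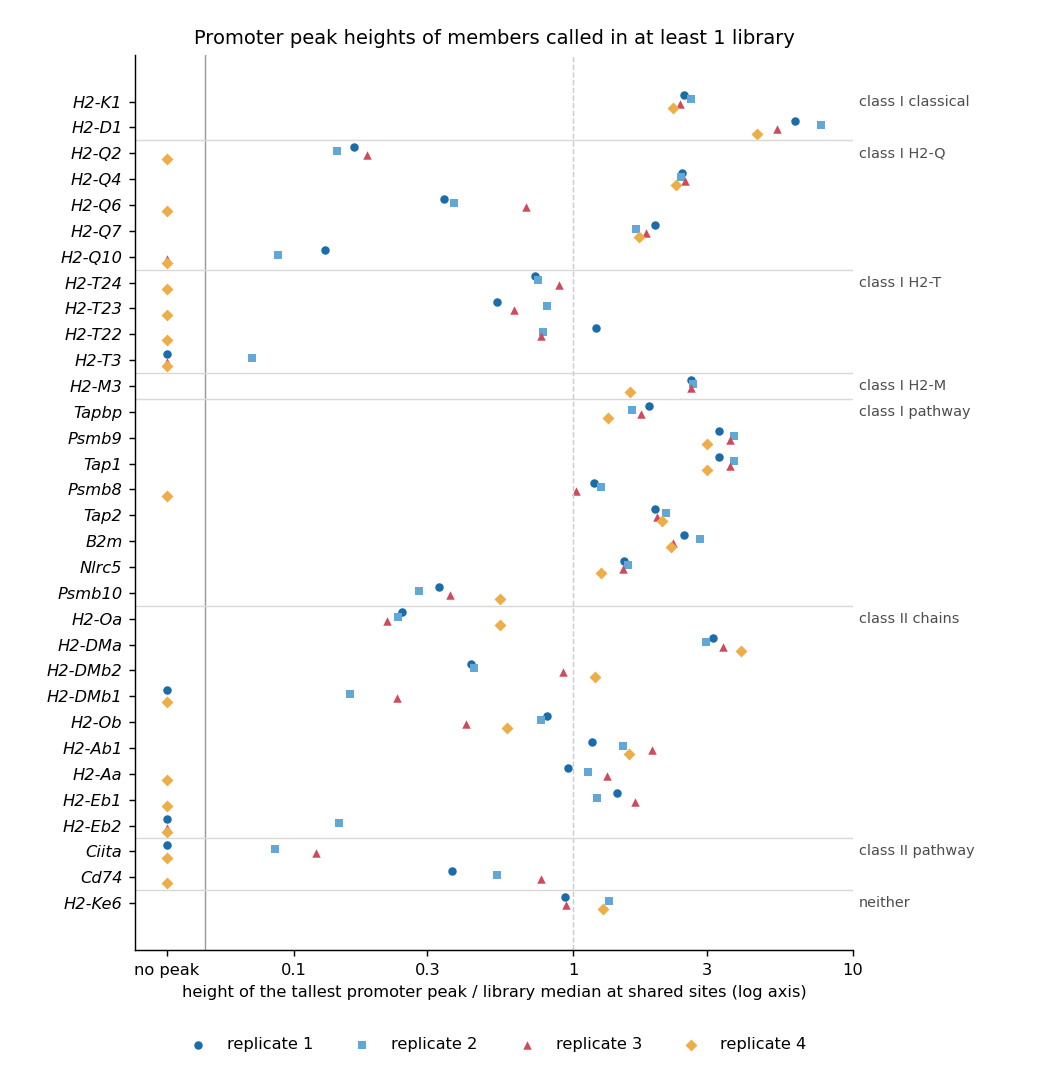
Relative height of the tallest promoter peak (log axis) for the 32 genes called in at least 1 library, grouped by role; each point is 1 library, and points left of the grey line had no peak. H2-D1 is the tallest in every library, the class I pathway lies mostly between 1 and 4, and the points without a peak are mostly those of replicate 4.

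The classical heavy chains, H2-K1 and H2-D1, which present peptide to CD8 T cells, were open in every library. H2-D1 stood at 6.23, 7.67, 5.36 and 4.54 times the shared-site median in replicates 1 to 4, the tallest promoter of the 44 genes and at a mean of 5.95 ± 1.34 (SD, n = 4) near the very top of all genes. H2-K1 had 2.48, 2.63, 2.41 and 2.28, so its libraries differed little while those of H2-D1 spread over a wider range. The ranges of these genes do not overlap, and every library had H2-D1 above H2-K1. Both promoters held repeated footprints, 15, 10, 8 and 3 at H2-K1 and 5, 4, 4 and 4 at H2-D1, although H2-K1 has more annotated starts (16, against 3) and so a longer window. The heights rest on 2803, 4029, 1559 and 259 implied tags at H2-D1 and on 1115, 1383, 701 and 130 at H2-K1. The promoter of H2-D1 is shown because it carries the tallest peak. The sequence is that of RefSeq, chr17:35262844-35263143 on GRCm38.p6, plus strand, from 250 bases before the start to 50 bases from the start on. Capitals mark bases inside a footprint in at least 3 libraries.

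H2-D1: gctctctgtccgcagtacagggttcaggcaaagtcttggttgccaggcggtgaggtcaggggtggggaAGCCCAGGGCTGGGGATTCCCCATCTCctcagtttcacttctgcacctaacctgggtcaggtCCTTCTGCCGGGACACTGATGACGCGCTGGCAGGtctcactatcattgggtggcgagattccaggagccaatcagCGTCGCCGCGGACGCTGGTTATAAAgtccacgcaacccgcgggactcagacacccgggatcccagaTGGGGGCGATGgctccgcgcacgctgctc

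Footprints in at least 3 libraries covered 97 of those 300 bases in 4 stretches. The second stretch ran from -120 to -87 relative to the start and held the letters TGACG, the core of a site known as site alpha in class I promoters and as the X2 box in class II promoters. After 10 further bases stood ATTGG, the letters of the Y box, bound by the factor NF-Y; these were outside the footprints. The first stretch held GGGATTCCC, a kappa B sequence that NF-kappa B proteins are known to bind, and 3 libraries had it footprinted throughout. H2-K1 held the same letters, but at most 2 libraries had a footprint base in them.

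A footprinted stretch of at least 20 bases standing no more than 30 bases before, or touching, a sense-strand ATTGG was found in 5 of the 22 class I chain genes with a promoter sequence, in B2m, and in 3 of 8 class II chain genes. This feature was chosen after the footprints had been seen and is a description of them. Its share over all promoters was not counted, so it is not shown to be particular to these genes. ATTGG alone was held, on either strand, by 37.4% of all promoters. The stretches are shown together, from the first footprinted base to the ATTGG, because they put the members of both classes beside each other; capitals again mark bases footprinted in at least 3 libraries.

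H2-K1: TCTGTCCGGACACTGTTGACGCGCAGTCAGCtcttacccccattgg
H2-D1: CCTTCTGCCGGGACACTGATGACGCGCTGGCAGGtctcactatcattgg
H2-Q4: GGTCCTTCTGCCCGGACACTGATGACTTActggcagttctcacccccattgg
H2-Q7: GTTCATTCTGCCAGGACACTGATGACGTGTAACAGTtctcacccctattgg
H2-M3: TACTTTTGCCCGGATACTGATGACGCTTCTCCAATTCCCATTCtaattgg
B2m: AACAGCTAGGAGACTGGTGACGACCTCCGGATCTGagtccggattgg
H2-Ob: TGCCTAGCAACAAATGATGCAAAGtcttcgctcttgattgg
H2-Aa: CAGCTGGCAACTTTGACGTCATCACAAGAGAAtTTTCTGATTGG
H2-Eb1: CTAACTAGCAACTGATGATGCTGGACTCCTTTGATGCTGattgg

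Their lengths ran from 24 bases in H2-Ob to 43 in H2-M3, and the number of unprotected bases before the ATTGG from 0 in H2-Eb1 to 18 in H2-Q4. TGACG lay inside the stretch of H2-K1, H2-D1, H2-Q7, H2-M3, B2m and H2-Aa, and the first bases of that of H2-Eb1 held GCAACTGAT, a match to GCAACNGNT, part of the X1 box bound by the RFX complex. In B2m and the class I chains at least 1 base of the stretch was footprinted in all 4 libraries. In H2-Ob, H2-Aa and H2-Eb1 the stretch rested on replicates 1, 2 and 3, since replicate 4 had no footprint at those promoters. Coordinates on GRCm38.p6 of the printed runs are chr17:34000359-34000404 for H2-K1, chr17:37270168-37270217 for H2-M3, chr2:122147592-122147638 for B2m and chr17:34287867-34287910 for H2-Aa.

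**Figure D2:**
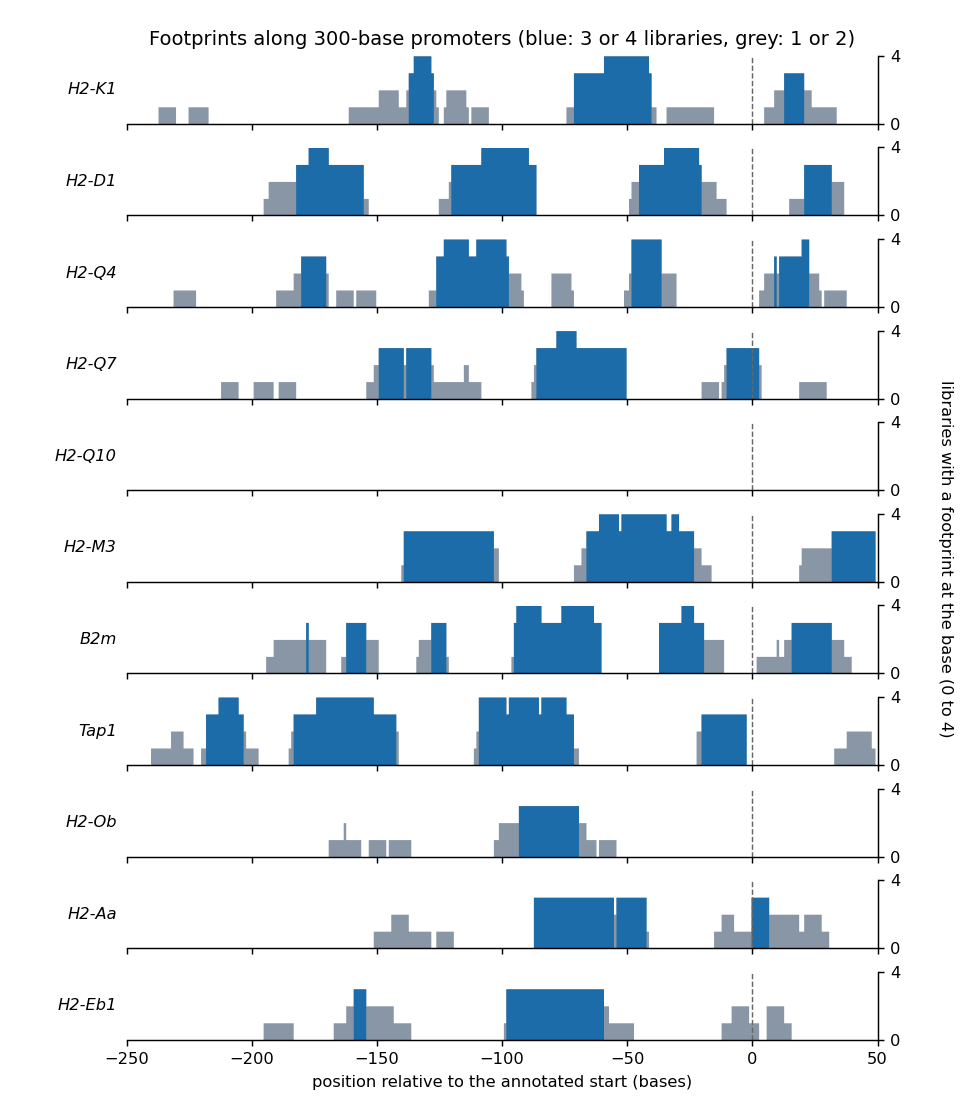
Number of libraries with a footprint at each base from 250 bases before to 50 bases after the annotated start for 11 promoters; blue marks bases footprinted in 3 or 4 libraries and grey those in 1 or 2. All promoters but H2-Q10 show a wide blue block upstream of the start, and the H2-Q10 row is empty.

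The non-classical H2-Q genes, which lie in a cluster beside H2-D1, were uneven. In replicates 1 to 4 H2-Q4 reached 2.45, 2.42, 2.51 and 2.32, as tall as H2-K1. H2-Q7, which encodes Qa-2, had 1.96, 1.67, 1.82 and 1.72. H2-Q6 had 0.344, 0.373, 0.674 and no peak in replicate 4, and H2-Q2 had 0.164, 0.143, 0.182 and none. H2-Q10, known for secretion by the liver, was called only in replicates 1 and 2, at 0.129 and 0.0876, and H2-Q1 in none. The H2-Q cluster thus ran from a promoter as tall as that of H2-K1 to one with no peak. The low H2-Q6 value beside H2-Q7 needs a limit: the promoters of these genes were identical in 254 of 261 aligned positions (97.3%). Of the 32-base words in their main peaks, 47.1% in H2-Q6 and 55.0% in H2-Q7 had another exact copy on the assembled chromosomes. How the authors' mapping shared such reads was not tested, and the order of these genes is uncertain.

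Sequence likeness and openness did not go together across the cluster. The H2-Q10 promoter was 84.5% identical to that of H2-D1 over 303 aligned positions, more than H2-Q4 was (78.9%), yet none of its 300 bases lay in a footprint in any library. Of the 32-base words within 1 kb of the start, 6.75% were repeated at H2-Q10 and 17.9% at H2-Q4. The H2-Q10 sequence, chr17:35469839-35470138, plus strand, is shown for comparison with that of H2-D1; it has no capitals because no base qualified, and none of the 8 motifs searched was found in it.

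H2-Q10: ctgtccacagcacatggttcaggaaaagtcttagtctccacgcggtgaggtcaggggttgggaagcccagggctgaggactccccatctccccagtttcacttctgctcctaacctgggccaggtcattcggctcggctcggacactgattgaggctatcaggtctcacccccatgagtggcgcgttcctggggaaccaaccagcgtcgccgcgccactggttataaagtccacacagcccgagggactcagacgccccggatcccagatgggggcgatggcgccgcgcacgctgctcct

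Of the 4 H2-T genes, 3 were called in replicates 1 to 3 and none in replicate 4. H2-T24 reached 0.731, 0.747 and 0.890 in those 3 libraries. H2-T23, which encodes Qa-1, the ligand of an inhibitory NK cell receptor, had 0.531, 0.802 and 0.612. H2-T22, a ligand of some gamma-delta T cell receptors, had 1.20, 0.781 and 0.763. These promoters sat near or below the typical shared site, and replicate 4 has too few tags to say that they were closed in it. H2-T3, the thymus leukaemia antigen of gut epithelium and thymus, was called in replicate 2 alone, at 0.0705. Of the 32-base words in the H2-T23 peak at the start 29.1% were repeated, and in the taller peak inside the gene 68.3%, so how reads were shared with near copies bears on this gene too.

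The 12 H2-M genes were closed with 1 exception. H2-M3, which presents formylated bacterial and mitochondrial peptides, reached heights of 2.63, 2.69, 2.64 and 1.60 and held 9, 4, 7 and 5 footprints in replicates 1 to 4. The other 11, H2-M1, H2-M2, H2-M5, H2-M9, H2-M11 and the H2-M10 genes, had no promoter peak, no promoter footprint and no cut-rate interval in any library. Several of these, the H2-M10 genes with H2-M1 and H2-M9, are known for expression in vomeronasal neurons. Repeated sequence covered 0.152% to 21.4% of the 32-base words around the starts of the H2-M genes, with a median of 7.51%. It covered 67.3% at H2-Q7 and 59.6% at H2-T23. How mapping bears on the missing H2-M peaks was not tested.

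Every gene of the class I pathway had a promoter peak in at least 3 libraries, and 7 of 8 had one in all 4. With curated RefSeq starts only, 7 of 8 had a peak in at least 3 libraries and 5 in all 4. Tap1, a subunit of the peptide transporter, and Psmb9, an immunoproteasome subunit, share a bidirectional promoter and therefore a single peak, of 3.31, 3.76, 3.63 and 3.00 in replicates 1 to 4. B2m, the light chain of all class I molecules, had 2.48, 2.84, 2.27 and 2.23, close to those of H2-K1. Tap2, the other subunit of the transporter, had 1.96, 2.15, 1.99 and 2.07. These peaks varied little between libraries, with replicate 4 never far below the rest. The Tap1 and Psmb9 promoter is shown because 1 stretch of sequence serves a transporter and a proteasome gene; it lies at chr17:34187306-34187605, plus strand as read from Tap1.

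Tap1: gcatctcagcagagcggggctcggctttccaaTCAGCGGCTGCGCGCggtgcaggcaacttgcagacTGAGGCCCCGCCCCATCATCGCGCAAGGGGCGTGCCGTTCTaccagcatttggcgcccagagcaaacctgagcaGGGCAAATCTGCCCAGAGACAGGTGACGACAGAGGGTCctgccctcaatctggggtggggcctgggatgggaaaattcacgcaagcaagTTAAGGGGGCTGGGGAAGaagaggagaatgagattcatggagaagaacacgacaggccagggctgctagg

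In it 112 bases in 4 stretches were footprinted in at least 3 libraries. One stretch held CCGCCC, the opposite strand of the GGGCGG letters bound by SP and KLF factors, and 3 libraries had it footprinted throughout. Another held TGACG, also footprinted throughout in 3 libraries. The CCAAT letters, ATTGG on the other strand, stood at the edge of the first stretch. The mutual distance of the starts is short, so the peak cannot be assigned to either gene.

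The remaining pathway genes were lower or depended on the start. Psmb8, another immunoproteasome subunit, had 1.18, 1.25, 1.02 and no peak in replicate 4. Psmb10, the third such subunit, had 0.329, 0.280, 0.361 and 0.544 and was the lowest of the pathway. At the curated start of Psmb10, position 105938392, replicates 1 to 3 had the same heights and replicate 4 had no peak. Nlrc5, the transactivator of class I genes, had 1.52, 1.57, 1.51 and 1.25. Tapbp, encoding tapasin, which holds class I molecules at the transporter, had 1.87, 1.62, 1.74 and 1.33. The Tapbp peak lies at a start shared with the promoter of Zbtb22; at the curated RefSeq start of Tapbp the heights were 0.853, 0.749, 0.777 and 1.25. The Nlrc5 peak lies at its farthest upstream start, position 94434356 of chromosome 8, and at its curated start, position 94472763, no library had a peak.

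Promoters of class II chain genes were open in most libraries of these CD8 T cells, at lower heights than the classical class I promoters except for H2-DMa, which stood above H2-K1 in every library at its tallest start, but below it in replicates 1 and 2 at a curated start. H2-Aa, the alpha chain of I-A, reached 0.958, 1.13 and 1.32 in replicates 1 to 3 and had no peak in replicate 4. H2-Eb1, the beta chain of I-E, had 1.43, 1.21, 1.66 and no peak in replicate 4. H2-Ab1, the beta chain of I-A, had 1.17, 1.50, 1.91 and 1.58. In each of these genes replicate 3 was the highest library, and its summed B cell markers also lay above those of replicates 1 and 2; the part of that in these values was not tested. The H2-Ab1 peak stands at a start farther upstream, position 34257689 of chromosome 17; at the curated start, position 34263227, the heights were 0.724, 0.613, 1.18 and none. The H2-Aa promoter, chr17:34287774-34288073, minus strand, is shown because both its X2 letters and its ATTGG are footprinted in 3 libraries.

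H2-Aa: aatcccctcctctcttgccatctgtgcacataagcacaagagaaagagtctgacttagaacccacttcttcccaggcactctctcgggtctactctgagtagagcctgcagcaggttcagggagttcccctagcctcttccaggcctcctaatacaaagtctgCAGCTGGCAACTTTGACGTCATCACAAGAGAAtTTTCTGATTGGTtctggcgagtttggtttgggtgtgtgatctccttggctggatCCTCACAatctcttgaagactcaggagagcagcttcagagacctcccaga

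Its footprinted letters TGACG and its ATTGG, at -74 to -70 and -48 to -44, were each protected throughout in 3 libraries, replicates 1 to 3. In H2-D1, by contrast, no library had a footprint in the sense-strand ATTGG.

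The chains that edit class II peptide loading were mixed. H2-DMa had 3.17, 2.98, 3.44 and 3.98 in replicates 1 to 4, the tallest class II value. These peaks belong to several starts, of which some lie within 1 kb of starts of Brd2, a broadly expressed gene. At 1 curated H2-DMa start, position 34125518, no library had a peak. At the other curated start, position 34122832, the heights were 2.23, 1.71, 3.02 and 2.67, also under a Brd2 promoter window. At a start outside those windows, position 34135628, they were 3.17, 2.98, 3.20 and 3.21. H2-DMb2 had 0.429, 0.442, 0.918 and 1.19, but 0, 0.131, 0.416 and 0 at its curated start. H2-DMb1 was called in replicates 2 and 3 only, at 0.158 and 0.234. Much of the signal at the DM genes therefore stood away from the curated starts, and within 1 kb of those of H2-DMb2 and H2-DMb1 25.6% and 26.6% of the 32-base words had another copy. H2-Ob and H2-Oa, whose product inhibits H2-DM, had 0.802, 0.768, 0.412 and 0.579, and 0.244, 0.236, 0.216 and 0.544. H2-Eb2, an E beta chain gene, was called in replicate 2 alone, at 0.145.

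**Figure D3:**
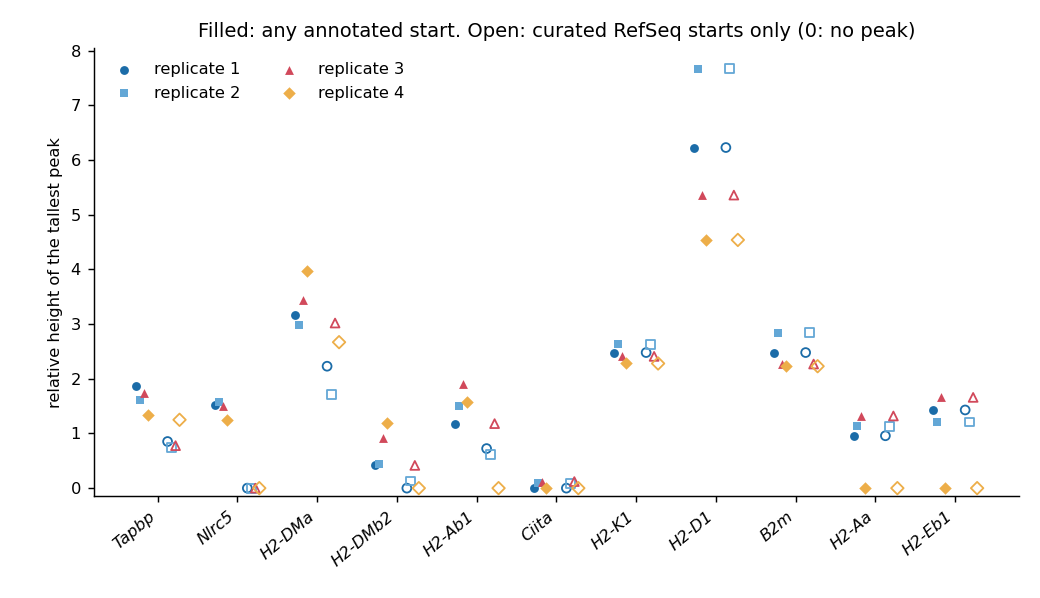
Relative height of the tallest peak at any annotated start (filled) and at curated RefSeq starts only (open) for 11 genes, 1 point per library. Nlrc5 has no peak at its curated start, H2-DMb2 and H2-Ab1 are lower there, and H2-K1, H2-D1, B2m, H2-Aa and H2-Eb1 keep their values.

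Of the class II pathway, Ciita, the master regulator of class II transcription, had nearly no promoter signal. It was called in replicates 2 and 3 only, at 0.0857 and 0.120, and only around neighbouring starts at positions 10488178 and 10488279 of chromosome 16; its starts elsewhere had none. Inside the annotated gene body, 31.6 and 33.2 kb from the nearest Ciita start, a pair of sites was called in replicates 1 to 3. They stood at chr16:10521301-10521500 with 0.373, 0.627 and 0.454 and at chr16:10522921-10523120 with 0.540, 0.602 and 0.639. Both lie where the annotation also places Dexi. Cd74, the invariant chain that fills the class II groove, had 0.369, 0.531 and 0.766 in replicates 1 to 3 and no peak in replicate 4. Its locus, the gene body with 25 kb on each side, held 5, 4, 23 and 0 peaks. Replicate 3 thus differed from the rest at Cd74, and it also differed at Cd79a, a B cell receptor gene with 0, 0, 0.347 and 0.684, and Pax5, a B cell factor with 0.584, 0.648, 1.02 and 1.67. H2-Ke6 had 0.933, 1.34, 0.938 and 1.28, near the median of the shared sites.

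The class II signal was read beside markers of cells that carry class II. Over all protein-coding genes 58.3%, 58.4%, 56.7% and 46.2% had a promoter peak in replicates 1 to 4. Counts of so few markers near these shares say little about such cells. Of 10 B cell markers 7, 6, 9 and 6 were called in replicates 1 to 4. Of 8 dendritic cell markers 3, 3, 3 and 1 were called, with summed heights of 0.373, 0.271, 0.447 and 0.333, and Xcr1, Clec9a and Cd209a were at 0 throughout. Of 8 macrophage and monocyte markers 5, 5, 5 and 0 were called, with sums of 1.35, 1.17, 1.34 and 0, and Csf1r, Adgre1 and Fcgr1 were at 0 throughout. Heights summed over the 9 class II chains were 8.21, 8.56, 10.1 and 7.88. In replicate 4 H2-DMa alone made up 3.98 of that sum, while H2-Aa and H2-Eb1 had no peak. The part of B cells in the class II signal was not tested, and more cells of a type and more open chromatin per cell cannot be told apart in bulk libraries.

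**Figure D4:**
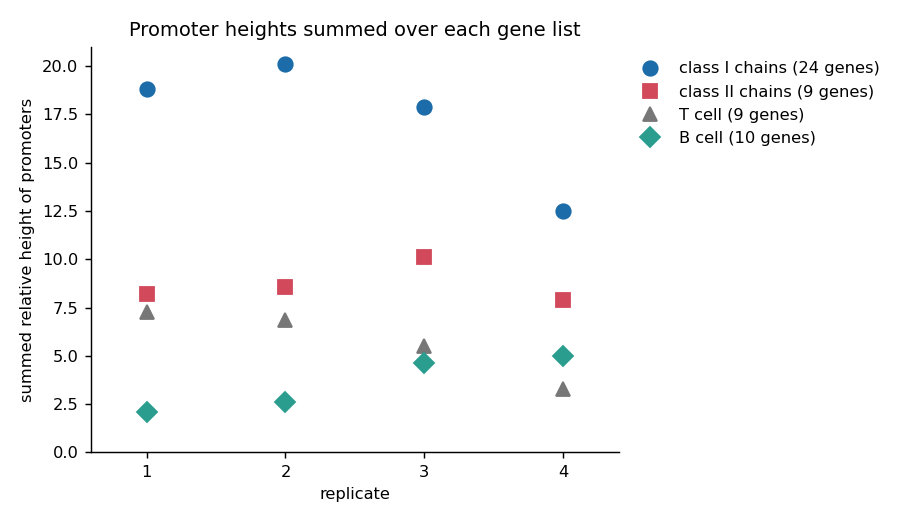
Relative promoter height summed over class I chains, class II chains, T cell markers and B cell markers in each library. B cell sums are higher in replicates 3 and 4 and T cell sums lower there, while the class II sums stay between 7.88 and 10.1. Promoters without a peak count as 0, and in the shallow replicate 4 only 4 of the 9 T cell markers were called.

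The comparison of class I chains with class II chains asks which kind of gene is more open in a cell that uses class I. A smaller share of class I promoters was called in every library: 45.8%, 50%, 41.7% and 20.8% of 24 class I genes in replicates 1 to 4, against 77.8%, 100%, 88.9% and 55.6% of 9 class II genes. The difference, class I minus class II, was -41.0 ± 8.97 percentage points (SD, n = 4; exact two-sided sign-flip permutation p = 0.13, the smallest that 4 libraries allow; 0.156 after Benjamini-Hochberg adjustment over 5 class comparisons). The sign held in 4 of 4 libraries, but the design cannot reach a p of 0.05. Without replicates 3 and 4 the shares averaged 47.9% for class I and 88.9% for class II, and the difference was again -41.0 points. It was carried largely by the closed H2-M genes: without them the shares averaged 70.8% for class I and 80.6% for class II, a difference of -9.72 points. In replicate 1 the order was then the other way, with 10 of 12 class I genes called, against 7 of 9 class II genes. In the shorter deposited peak lists the shares were 35.4% for class I and 55.6% for class II, and with curated RefSeq starts, an alternative added after seeing the data, they were 39.6% for class I and 72.2% for class II; 25 of the 44 genes were then called in at least 3 libraries, beside 55.1% of all genes that have such a start.

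The heights were compared next. Mean relative height was 0.785, 0.837, 0.744 and 0.519 over class I chains in replicates 1 to 4, against 0.912, 0.951, 1.12 and 0.875 over class II chains, a difference of -0.244 ± 0.143 (exact sign-flip permutation p = 0.13, adjusted 0.156). Without replicates 3 and 4 the means were 0.811 for class I and 0.931 for class II, a smaller difference of -0.120. The direction did not hold under other definitions of the classes. Without the H2-M genes class I averaged 1.24 and class II 0.965, a difference of 0.279 with class I higher in all 4 libraries (exact sign-flip permutation p = 0.13). Single tall genes weigh on these means, H2-D1 with a mean height of 5.95 and H2-DMa with 3.39. The median over genes was 0.539 for class I without H2-M and 0.745 for class II, the opposite order. That order leans on the shallow replicate 4. H2-T23 and H2-T24, in the middle of class I, had no peak there and count as 0. H2-DMb2, the middle of class II, had its highest value there, 1.19. With curated RefSeq starts the means were 0.721 for class I and 0.687 for class II (difference 0.0347), since H2-DMa, H2-DMb2 and H2-Ab1 lose height there. Among genes called in all 4 libraries the median height was 2.48, 2.63, 2.51 and 2.28 for the 5 class I chains, against 0.802, 0.768, 0.918 and 1.19 for the 5 class II chains. Over all genes called in all 4 libraries the medians were 1.51, 1.50, 1.63 and 1.58. These medians are over genes chosen by being called, in the shallow replicate 4 too, and carry no test. Of the 10 class I chains called in at least 3 libraries, 5 were low, with means from 0.122 for H2-Q2 to 0.687 for H2-T22. All 5 had no peak in the shallow replicate 4, which counts as 0 in their means.

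Loci of class II chains held more peaks, and since neighbouring loci overlap a peak can count for several genes. Class I loci held on average 5.08, 4.83, 3.88 and 1.25 peaks in replicates 1 to 4, against 11.2, 14.3, 12.1 and 3.22 at class II loci, a difference of -6.46 ± 3.30. Promoters held 2.79, 1.75, 2.5 and 0.750 footprints in class I, against 7.67, 6.67, 8.56 and 1.33 in class II, a difference of -4.11 ± 2.41. Footprint counts were not scaled by window length, which grows with the number of annotated starts of a gene. Over all genes the loci averaged 5.29, 5.43, 4.11 and 1.91 peaks, and the promoters 4.26, 3.67, 4.11 and 1.12 footprints. Each difference had the same sign in 4 of 4 libraries and the same exact sign-flip permutation p of 0.13, adjusted 0.156. Without replicates 3 and 4 class I averaged 4.96 peaks per locus and 2.27 footprints per promoter, against 12.8 peaks and 7.17 footprints in class II. With curated starts only the footprint averages were 1.85 in class I and 3.11 in class II. H2-DMa alone held 38, 27, 35 and 8 footprints in replicates 1 to 4, in windows partly shared with Brd2. The percentage of promoter length under cut-rate intervals averaged 12.8 in class I and 13.0 in class II; the difference was -0.161 ± 2.83, within the spread between libraries (exact sign-flip permutation p = 0.875), and without replicates 3 and 4 it was 0.493.

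**Figure D5:**
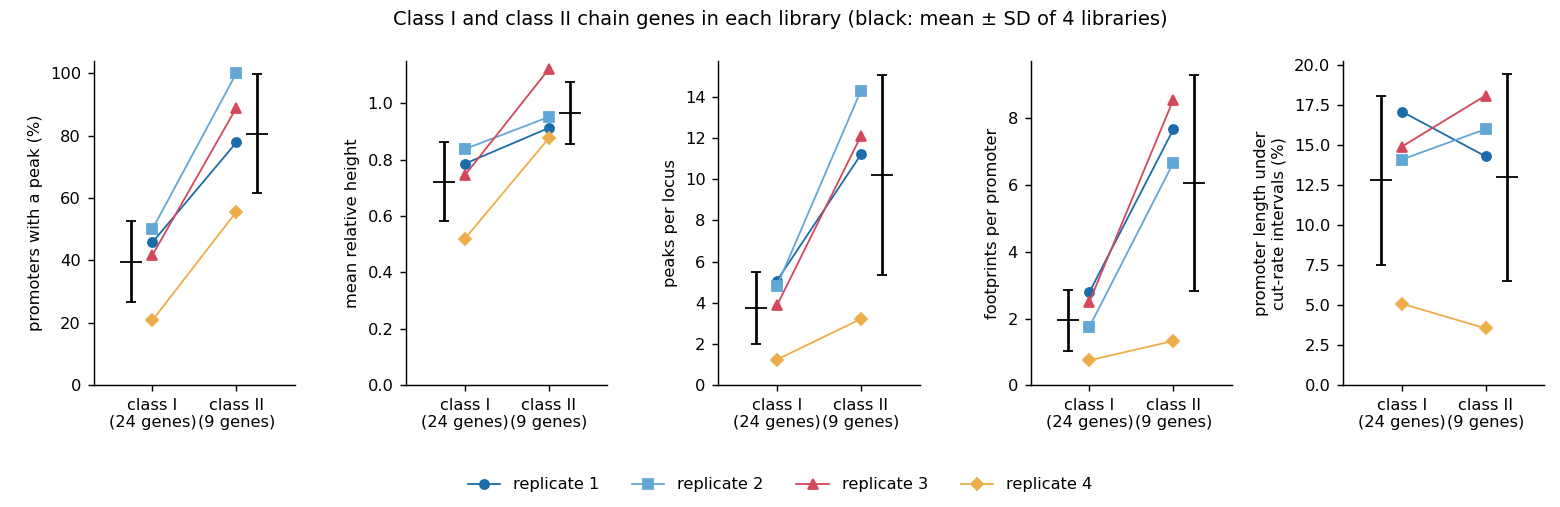
The 5 measures of 24 class I chain genes (left in each panel) and 9 class II chain genes (right); each line joins the values of 1 library, and black bars give mean ± SD over 4 libraries. The first 4 measures are lower for class I in every library, and the lines of the last cross.

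Motif letters were counted on both strands in 300-base RefSeq promoters, which were found for 37 of the 44 genes; Nlrc5, Ciita, Tap2, H2-Ab1, H2-Q1, H2-T24 and Cd74 are named only. GGGATTCCC was held by 4 of 22 class I chain promoters, H2-K1, H2-D1, H2-Q6 and H2-Q7, by no class II chain promoter, and by 0.353% of all 32851 promoters. The looser kappa B form GGGNNTTCC, which overlaps it, was held by 6 class I and 2 class II chain promoters and by 5.82% of all. TGACG was held by 11 of 22 class I chains, 3 of 6 class I pathway genes and 1 of 8 class II chains, with 20.8% of all promoters. ATTGG was held by 19 of 22 class I chains and by all 8 class II chains, with 37.4% of all. These genes descend from duplications, so their promoters are not independent of each other, and H2-M promoters without any peak held the same ATTGG and TGACG letters. GAAANNGAA, an interferon response form, was held by H2-T23, H2-T22 and B2m and by 8.56% of all promoters; in none of these did 3 libraries have a footprint base in it. GCAACNGNT was held by H2-Eb1, H2-Eb2 and H2-M10.5 and by 2.42% of all. CCGGAAG, an ETS form, was held by H2-T3 and H2-DMa (8.86% of all) and GGGCGG by 2 class I chains, by Tapbp, Psmb9 and Tap1, and by no class II chain (35.7% of all).

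Around the genes, 283 merged sites lay in the loci, of which 147 were called in at least 3 libraries and 59 in all 4. At no promoter of any protein-coding gene lay 152 of them, 76 in at least 3 libraries and 22 in all 4. Of those 76, 13 fell in the body of one of the 44 genes and 59 in no protein-coding gene body. The tallest by mean height (3.31) stood at chr17:34101601-34101780, 9.27 kb downstream of a start of H2-Oa, with 3.11, 4.18, 3.18 and 2.77 in replicates 1 to 4. Close to it (3.30), and taller in replicates 1 and 3, came chr17:35997061-35997300, 23.3 kb downstream of the H2-T24 start, with 3.82, 4.15, 3.43 and 1.81. Upstream of H2-D1, by 4.39 kb, chr17:35258241-35258440 had 2.98, 3.18, 2.65 and 2.98. All were taller than the H2-K1 promoter in every library, except the site near H2-T24 in replicate 4, and each had footprints in every library. Which genes they act on is not given by these data.

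Most of the wider pathway was open. Of 34 other antigen presentation genes found in the annotation, 33 had a promoter peak in at least 3 libraries and 26 in all 4; the exception was March1, a ubiquitin ligase that removes class II from the cell surface, with none. Beside the 55.2% of all genes this is a high share, but the list was put together with results of these data known and holds many broadly expressed genes. The tallest were Nfya, a subunit of the Y-box factor NF-Y, with a mean of 4.67, Rfxank, a subunit of the X-box complex RFX, with 3.59, the chaperone gene Calr with 3.46 and the interferon gamma receptor gene Ifngr1 with 3.23. Rfx5 and Rfxap, the other RFX subunits, had 1.38 and 2.11. Promoters of the RFX and NF-Y subunits were thus open in all 4 libraries, whereas that of Ciita, which acts with them at class II genes, was at or near 0.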

How the data were processed

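Per library the authors deposited 2 peak lists of different length, footprints and cut-rate intervals, on mm10 per the labels. Sources used here do not give the aligner or peak caller. The value used from the longer peak lists is a signal, the peak height as the authors deposited it, scaled to library depth; all low heights tested were whole multiples of 1 step within 0.05, from which the implied tags (109, 62.9, 91.5 and 24.3 M in replicates 1 to 4) were read. Cut-rate intervals were deposited with a q-value each, all below 0.05. Tags implied at a peak follow from the same step; counting intervals were not formed.

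Genes and starts came from GENCODE mouse release 21, and curated starts and 300-base promoters from RefSeq (GRCm38.p6). A peak or footprint counted with an overlap of at least 1 bp. Peaks of all libraries were merged into 86936 sites. Identity came from Biopython 1.88 pairwise alignment with free end gaps, and copies from exact 32-base matches on the assembled chromosomes, both strands. Class differences were tested with an exact two-sided sign-flip permutation over 4 libraries and Benjamini-Hochberg adjustment. Named are all genes with a peak in at least 3 libraries, those called in fewer, those called in none by name or family, and from the pathway list the 4 tallest and those never called; Rfx5 and Rfxap, and Cd8a, Cd8b1, Cd5, Cd79a, Cd79b and Pax5 among the markers, were picked after their values were seen. The members, gene lists and motifs were chosen with earlier results of these data known. Alternatives were the shorter lists, the 20000 highest peaks, other windows and starts, other definitions of the classes and leaving out libraries. Steps were tested on simulated peaks. Ifi30 of the pathway list was not used here. Software versions were pandas 2.3.3, numpy 2.4.6 and scipy 1.17.1 under Python 3.11.15, with matplotlib 3.10.9 for figures.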

Additional observations from a re-analysis of the deposited data

Results flagged for a closer look

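Among 113 sets of 4 library values for single genes, 13 had 1 library far from the other 3 by Dixon's criterion. For independent, normally distributed values chance marks about 1 in 20 sets. Some of these sets are small counts with ties, and replicate 4 is shallower, so that rate is no measure for them. Replicate 4, the shallowest library, was the lowest in 10 of the 13 marked sets. It had 1 peak at the H2-Q7 locus, 0 peaks and 0% of promoter length under cut-rate intervals at H2-T23, a relative height of 1.60 at H2-M3, 1 footprint and 7.48% under cut-rate intervals at Tapbp, 1.55% at Psmb10, 4 peaks at the H2-Oa locus, 3 footprints at H2-Ab1 and 0% under cut-rate intervals at H2-Aa. In 1 case replicate 4 was the highest, with a relative height of 0.544 at H2-Oa, where the others had 0.216 to 0.244. Replicate 1 was the highest at H2-D1, with 5 footprints against 4 in each of the others, and at the H2-M3 locus, with 6 peaks against 4.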

How the results depend on the processing

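No paired analysis was possible because 1 group leaves no samples to pair across groups; the class comparisons are differences within each library. The lower share of called promoters, the fewer peaks per locus and the fewer footprints per promoter of class I kept their sign, as means over the libraries, in all 16, 13 and 15 alternatives tried, and the count of 27 genes called in at least 3 libraries ran from 18 to 30. The difference in mean relative height, class I minus class II, was positive with pathway genes added (0.199), without the H2-M genes (0.279), with H2-M and with Eb2, DM and O genes left out (0.0898) and with curated RefSeq starts (0.0347); the last 2 were chosen after seeing the data, and the cause was not tested. The difference in promoter length under cut-rate intervals ran from -1.17 to 0.843 percentage points when each replicate was left out. It was 0.493 with replicates 1 and 2 only, 3.52 with pathway genes added, 7.41 without the H2-M genes, 0.482 without Eb2, DM and O genes, 8.05 with both restrictions, 0.113 with curated starts and 0.114 with cut-rate values below 0.01. Of 319 alternative mean heights of 29 single genes 274 stayed within the spread between libraries and 45 did not, of which 19 came from the shorter lists and 16 from the 20000 highest peaks. The depth of replicate 4 limits what its missing peaks can show.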
